A study of Mus musculus with 20 samples.

Results

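The interferon-stimulated follicular helper T cells (Tfh-ISG in the authors' own naming of clusters) were the smallest of 6 groups into which the splenic follicular T cells of the study had been clustered. Every cell that carried this cluster name in the deposited cell table was taken, which gave 379 of 28192 cells, or 1.34% of all cells (95% exact Clopper-Pearson interval 1.21% to 1.49%). The other clusters held 11953 activated Tfh cells, 11650 follicular regulatory T (Tfr) cells, 2803 Sostdc1 Tfh cells, 725 central memory Tfh cells and 682 effector Tfh cells. The name of the cluster rests on interferon-stimulated genes, Ifit1 and Isg15 included, and the clustering itself used the transcriptome, so differences in gene levels between this cluster and the rest are given below as a description without a test.

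The study sequenced follicular T cells (CD3+CD4+ cells positive for both CXCR5 and PD-1, and CD45.2+ without CD45.1) sorted from spleens of C57BL/6 bone marrow chimeras, with 1 gene expression library and 1 T cell receptor (TCR) library for each of 10 mice. In the 5 WT chimeras, irradiated recipients had received congenic wild type marrow and were immunized after 6 weeks with NP-OVA, a hapten-conjugated ovalbumin, in alum, with a booster. In the 5 564Igi chimeras, the wild type marrow was mixed with marrow from 564Igi mice, engineered so that their B cells express 1 self-reactive antibody that binds complexes of RNA and protein, and these mice were not immunized. The labels state that all chimeras were killed 10 weeks after irradiation, and how the booster was timed against that end point was not settled here. Recipients were 8 to 10 weeks old when irradiated. By the labels, 2 of the WT mice and 3 of the 564Igi mice were female. Because 1 group was immunized and the other developed autoimmunity, these 2 sources of a difference between the groups cannot be told apart.

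Type I interferons bind a receptor made of IFNAR1 and IFNAR2, and the attached kinases JAK1 and TYK2 phosphorylate transcription factors of the STAT family. These join IRF9 to form a factor that binds interferon-stimulated response elements in the promoters of antiviral genes, among them the IFIT, OAS and Schlafen families, the nucleic acid sensors and the ubiquitin-like protein ISG15. In follicles, Tfh cells give help to B cells through CD40L, IL-21 and ICOS, while Tfr cells express the transcription factor Foxp3 and restrain that help.

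The promoters of the raised genes, which are defined further below, are shown first. The motif searched was the core of an interferon-stimulated response element, GAAA followed by any 2 bases and a second GAAA, on either strand (on the opposite strand it reads TTTC, any 2 bases, TTTC), in RefSeq promoters of 300 bases (250 before and 50 after the transcription start, build GRCm38.p6). Of 32851 promoters in the table, 3.44% held it. By gene, 406 of the 10511 matrix genes with a promoter entry held the motif in at least 1 promoter (3.86%), compared with 49 of 125 raised genes (39.2%) and 1 of 17 lowered genes (5.88%). Among genes of the interferon-stimulated lists the count was 42 of 71 (59.2%), and among raised genes outside every list it was 11 of 57 (19.3%). Capitals below mark the matches in 4 of the genes with the largest differences, followed by Irf7, a promoter of equal length in which these letters were not found. All run 5′ to 3′ on the strand of the gene. In Isg15 (chr4:156200769-156201068, minus strand), 3 overlapping matches lie together, the first of them 78 bases before the start. Ifit1 (chr19:34640639-34640938, plus strand), Bst2 (chr8:71537423-71537722, minus strand) and Ifit3 (chr19:34583279-34583578, plus strand) each hold 2 matches, and those of Bst2 overlap. The Irf7 promoter lies at chr7:141266375-141266674 on the minus strand.
Isg15: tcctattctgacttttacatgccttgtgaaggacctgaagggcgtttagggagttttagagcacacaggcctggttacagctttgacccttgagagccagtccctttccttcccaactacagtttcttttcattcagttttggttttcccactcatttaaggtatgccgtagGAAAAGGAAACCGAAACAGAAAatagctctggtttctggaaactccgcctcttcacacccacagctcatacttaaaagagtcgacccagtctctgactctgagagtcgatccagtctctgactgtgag
Ifit1: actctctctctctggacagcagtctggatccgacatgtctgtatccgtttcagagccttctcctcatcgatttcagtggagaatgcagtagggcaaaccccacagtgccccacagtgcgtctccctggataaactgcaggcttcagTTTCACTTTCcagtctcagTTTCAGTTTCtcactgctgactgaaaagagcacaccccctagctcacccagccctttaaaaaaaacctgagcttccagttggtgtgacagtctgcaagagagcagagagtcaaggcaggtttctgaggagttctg
Bst2: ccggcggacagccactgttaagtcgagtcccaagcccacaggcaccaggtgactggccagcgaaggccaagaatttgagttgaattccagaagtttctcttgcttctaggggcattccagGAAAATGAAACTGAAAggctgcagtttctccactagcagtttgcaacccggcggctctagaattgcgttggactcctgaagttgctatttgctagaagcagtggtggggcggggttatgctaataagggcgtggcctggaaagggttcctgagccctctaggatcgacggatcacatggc
Ifit3: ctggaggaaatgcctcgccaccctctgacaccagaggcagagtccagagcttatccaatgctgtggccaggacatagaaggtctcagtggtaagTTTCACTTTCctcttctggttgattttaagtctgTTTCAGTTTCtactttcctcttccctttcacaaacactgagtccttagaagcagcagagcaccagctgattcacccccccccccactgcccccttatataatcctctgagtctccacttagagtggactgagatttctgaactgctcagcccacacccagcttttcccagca
Irf7: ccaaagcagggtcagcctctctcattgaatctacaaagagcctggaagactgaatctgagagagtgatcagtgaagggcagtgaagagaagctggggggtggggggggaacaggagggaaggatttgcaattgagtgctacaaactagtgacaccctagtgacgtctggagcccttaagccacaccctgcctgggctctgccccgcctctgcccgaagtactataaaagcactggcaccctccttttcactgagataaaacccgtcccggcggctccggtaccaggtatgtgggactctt

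The cluster was present in every mouse. It held 50, 14, 34, 38 and 52 cells in the WT chimeras (mice 11, 12, 14, 23 and 36) and 28, 43, 35, 17 and 68 cells in the 564Igi chimeras (mice 13, 17, 21, 24 and 34). As a share of the follicular T cells of each mouse, these were 1.76%, 0.520%, 1.80%, 1.08% and 1.29% in WT and 0.926%, 1.42%, 1.12%, 1.52% and 2.33% in 564Igi chimeras. The highest share was in a 564Igi mouse and the lowest in a WT mouse, and the groups overlapped over most of their range. The means were 1.29% ± 0.528 in WT and 1.46% ± 0.537 in 564Igi chimeras (SD, n = 5 each), and the difference of 0.171 percentage points was within the spread between mice (exact permutation test over all assignments of the mice, two-sided, p = 0.627, smallest possible 0.00794). The median raw UMI count per cell of the cluster exceeded that of the remaining cells in 9 of 10 mice. It ranged over mice from 2934 to 5090 in the cluster (mean 3822 ± 679) and from 2723 to 4368 in the other cells (mean 3516 ± 467), and the part of this depth in the differences below was not tested. The number of genes per cell was higher in 6 of 10 mice, and the cluster's cells summed to between 53584 and 287886 UMIs per mouse.

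Interferon-stimulated genes, Ifit1 and Isg15 among them, entered the clustering and gave the cluster its name, so their shares are a description. Ifit1 was found, with a corrected UMI count of at least 1, in 88.7% of the cluster's cells, against 5.79% of activated Tfh, 5.26% of Tfr, 3.96% of Sostdc1, 6.21% of central memory and 4.69% of effector cells. Isg15 was found in 97.9% of the cluster's cells and in 17.2% to 34.5% of the cells of each other cluster. The label of follicular T cell was checked against markers. Of the cluster's cells, 99.5% contained transcripts of Cd3e and 73.4% of Cd4. Of the follicular genes, Icos was found in 67.5%, Pdcd1 (PD-1) in 68.9%, Cxcr5 in 34.6% and Bcl6 in 7.12%. Among the genes of other cells, Lyz2, Itgax and Csf1r of the myeloid list, Klrd1 and Klrk1 of the CD8 and natural killer list (2 of 4 measured) and Hba-a2 of the erythroid list (1 of 4 measured) were at 0 in the cluster, and none of the 7 B cell genes measured was raised. The most abundant of the CD8 and natural killer genes was Klrb1c, and the summed level of that list had a median over mice of 0.0699 in the cluster and 0.0935 in the other cells. For the erythroid list, where Hbb-bs was the most abundant, these were 0 and 0.00641. Ctss, of the same myeloid list, was raised by 0.416, and its part in the other differences was not tested. Of 491 cell barcodes that occurred in more than 1 library (988 cells), 15 cells lay in the cluster.

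Counted cell by cell, the interferon-stimulated genes marked out this cluster as the upper end of a range that the other cells also entered. Of 91 genes from lists of interferon-stimulated genes, a cluster cell had a median of 41 found (lowest 17, highest 70), and a cell outside had 12 (highest 48). The median of each mouse lay between 38.5 and 43.0 inside the cluster and between 11 and 14 outside it, so the mice did not overlap. In single cells the ranges met. There were 1243 outside cells (4.47%) with at least the 25 genes that marked the 5th percentile of the cluster, made up of 646 Tfr cells (5.55% of Tfr), 483 activated Tfh cells (4.04%), 64 Sostdc1 cells, 27 central memory cells and 23 effector cells. Only 15 outside cells reached the cluster's median. In the other direction, 16 cluster cells (4.22%) had no more than the 24 genes at the 95th percentile of the outside cells.

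**Figure D1:**
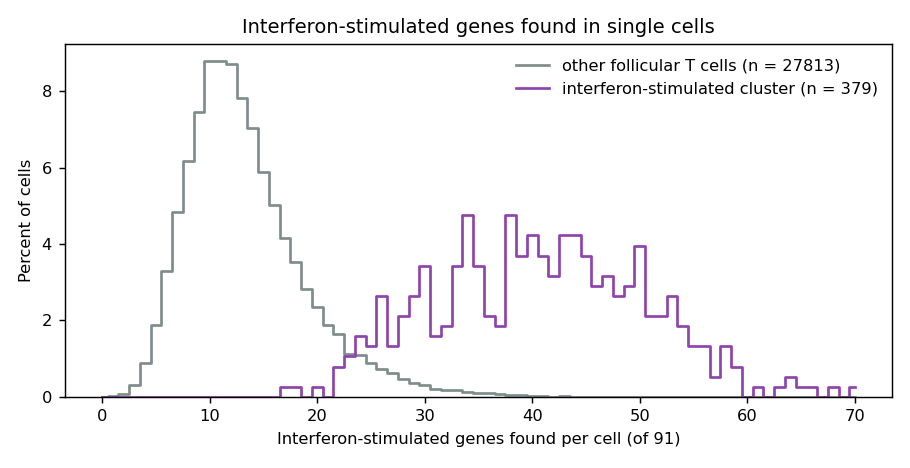
Number of interferon-stimulated genes found per cell (horizontal axis, of 91 genes) against the percent of cells (vertical axis) for the 379 cells of the cluster and the 27813 other follicular T cells. The curves peak near their medians of 41 and 12 and overlap between about 17 and 48 genes.

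Gene levels in the cluster were set against all other cells of the same mouse, as the difference of mean log2(corrected count + 1). A gene was described as raised or lowered when the median difference over the 10 mice was beyond 0.2 in size and the sign was the same in every mouse. Of 13798 genes, 152 were raised (1.10% of genes) and 21 were lowered (0.152%), and the median difference over all genes was -0.00487. On the scale of log2 mean counts per 10000, 200 were raised and 87 lowered. A threshold of 0.5 left 71 raised and 0 lowered. The smallest difference among the raised genes was 0.203, and the largest just outside the limit was 0.199. Genes of the interferon-stimulated lists made up 62 of the 152, and 68 raised genes were in none of the lists. Since the clusters were made from these values, neither count is a test.

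Isg15, which encodes a ubiquitin-like modifier, had the greatest difference on this scale, while on the scale of log2 mean counts per 10000 Ifit1 (3.57) and Isg15 (3.53) stood close together. Its level averaged 3.101 ± 0.176 inside and 0.376 ± 0.0715 outside the cluster (SD, n = 10 mice), the within-mouse difference ran from 2.44 to 2.97 with a median of 2.75, and it was found in a median of 97.5% of cluster cells against 29.99% of other cells. For Ifit1, whose product binds viral RNA that lacks the cap methylation of host messages, the difference ran from 1.596 to 2.37 with a median of 2.09, and it was found in 88.3% of cluster cells against 5.46% of others. In no mouse did the share of other cells with Ifit1 (2.99% to 7.41%) come near that of the cluster (78.6% to 100%). Ifit3 (1.31) was the most restricted of the 20 genes with the largest differences, with 65.5% of cluster cells against 0.920% of other cells. The remaining IFIT genes, Ifit3b (0.456), Ifit1bl1 (0.327) and Ifit2 (0.243), were raised as well, so that all 5 members of the family measured were.

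Of the 11 genes of the signalling pathway itself, 5 met the limit. Irf7, the factor that amplifies type I interferon production, had a difference of 1.46 (lowest 1.22, highest 1.67) and was found in 91.6% of cluster cells against 21.3% of others. Stat2 (0.346), Irf9 (0.409) and Irf2 (0.206) were raised as well. The transcription factor genes Irf1 (0.236, higher in 9 of 10 mice) and Irf3 (0.0200, 5 of 10) did not meet it. The receptor genes Ifnar1 (-0.0228, higher in 3 of 10 mice) and Ifnar2 (-0.00770, 5 of 10) and the kinases Jak1 (0.0387, 6 of 10) and Tyk2 (0.00827, 6 of 10) did not have the same sign in all mice. The genes of type I and III interferons themselves were not analysed here.

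Feedback genes and ISG15 conjugation genes were raised together, 6 of 7. Usp18, the protease that removes ISG15 and dampens the receptor, had a difference of 1.05 (0.746 to 1.35) and was found in 66.3% of cluster cells against 4.77% of others. The ligase gene Herc6 (0.589), the conjugating enzyme gene Ube2l6 (0.558), the activating enzyme Uba7 (0.236) and the JAK inhibitor Socs1 (0.307) were raised. Socs3 (0.0379) was higher in 8 of 10 mice and did not meet the limit.

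Among the antiviral effectors, 14 of 19 genes were raised and 1 was lowered. Ifi27l2a (1.94, found in 100% against 96.0% of cells) differed in level and hardly in the share of cells, whereas Bst2 (1.69), which encodes tetherin, was found in 90.0% against 25.8%. The exonuclease gene Isg20 (1.38), the chaperone gene Rtp4 (1.25), the dNTP hydrolase gene Samhd1 (1.14), Phf11b (1.003) and the viperin gene Rsad2 (0.926) followed. Ifi27 was the lowered gene, with a median of -0.212 (-0.369 to -0.111) and a share of 44.2% of cluster cells against 58.2% of others. Of the Ifitm genes, Ifitm1 was at 0 in the cluster, and Ifitm2 (-0.00165) and Ifitm3 (0.0597) changed sign between mice. In the OAS family 4 of 6 were raised, Oas1a (0.759), Oasl2 (0.553), Oas3 (0.437) and Oasl1 (0.234).

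Nucleic acid sensors were raised in 11 of 19 cases. They included the DNA-binding p200 genes Ifi203 (1.38), Mndal (1.12) and Ifi208 (0.843), the Z-nucleic acid sensor Zbp1 (1.21), and the RNA helicase sensors Ifih1 (MDA5, 0.681), Ddx58 (RIG-I, 0.637) and Dhx58 (0.535). Sting1 (0.0474) and Cgas (-0.0111), which signal from cytosolic DNA, and Aim2 (-0.00648) did not have the same sign in all mice, and Tlr9 was at 0 in the cluster. The p200 genes are close paralogs in 1 cluster on chromosome 1, and how multi-mapping reads were divided among them is not given in the sources used here.

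In the Schlafen family, which restrains T cell proliferation and viral translation, Slfn1 (1.43), Slfn5 (0.927), Slfn2 (0.800) and Slfn8 (0.562) were raised of 7. Of 16 interferon-inducible GTPases 9 were raised, led by Ifi47 (1.22), Iigp1 (0.845) and Tgtp2 (0.782), and 14 of the 16 were higher in all mice. Of 12 PARP and TRIM genes 9 were raised, with Trim30a (0.895), Parp14 (0.760) and Parp9 (0.705) at the top. MHC class I and immunoproteasome genes were raised in 12 of 16 cases, with H2-T22 (0.868), Tapbp (0.644), Psmb8 (0.643), B2m (0.340) and H2-K1 (0.284). B2m was found in 99.2% and H2-K1 in 99.8% of the other cells. The surface antigens Ly6a (Sca-1, 1.55) and Ly6e (0.601) were raised, while Ly6c1 was at 0 in the cluster and Ly6c2 was found in a median of 0% of its cells.

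Genes linked to interferon gamma were mostly not raised. Of 8 measured, Cxcl10 (0.680, found in 35.0% of cluster cells against 6.34% of others) met the limit. Ifng (0.0269), its receptor genes Ifngr1 (-0.000580) and Ifngr2 (-0.00733), Irf8 (0.0131) and Ciita (-0.00180) changed sign between mice, and Cxcl9 was at 0 in the cluster.

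Genes of the other follicular T cell programmes differed little. None of 15 regulatory T cell genes and none of 18 follicular helper genes was raised, and the medians of these lists were -0.0396 and -0.0692 (-0.00487 over all genes). Foxp3 had a median difference of -0.0166 (-0.215 to 0.164, higher in 4 of 10 mice). Pdcd1 was the 1 follicular gene lowered, at -0.322 (-0.521 to -0.00240), and it was found in 71.8% of cluster cells against 78.0% of others. Klf2, which keeps T cells in circulation, was raised by 0.266 (0.0539 to 0.423), and Cd69, an early activation gene, was higher in all 10 mice at 0.193, just under the limit. None of 10 heat shock genes was raised or lowered. Ctss (cathepsin S, 0.416) was the 1 raised gene of 6 measured from the myeloid and dendritic list. The summed level of that list ran from 1.13 to 1.87 in the cluster (median 1.66) and from 1.08 to 1.46 in the other cells (median 1.24), and Ctss itself was found in 51.0% of the other cells.

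Lowered genes included Tbc1d4 (-0.398), which acts in glucose transporter traffic, the mitochondrial genes mt-Nd4l (-0.325) and mt-Cytb (-0.309), the chromatin genes Hmgb1 (-0.308) and H2az1 (-0.296), the cytokine gene Mif (-0.292), Pnrc1 (-0.283), the translation factor gene Eif4a1 (-0.266) and the glycolytic gene Tpi1 (-0.248). Mitochondrial genes took a median share of UMIs per cell of 2.94% ± 0.373 in the cluster and 3.35% ± 0.262 in the other cells (SD, n = 10 mice). It was lower in the cluster in 10 of 10 mice, and its part in the lower mitochondrial genes was not tested.

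Outside every list, the raised genes with the largest differences were Ms4a4b (1.41), a T cell membrane protein gene, the galectin gene Lgals9 (1.03), the galectin-binding protein gene Lgals3bp (0.955), the nuclear body gene Sp100 (0.920), AW112010 (0.881), Ms4a6b (0.868) and Epsti1 (0.853). The cell cycle gene Ccnd2 (0.578), the oxidase subunit gene Cybb (0.487), the surface gene Cd47 (0.470) and the nuclear body genes Sp110 (0.467) and Pml (0.455) were among the others.

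**Figure D2:**
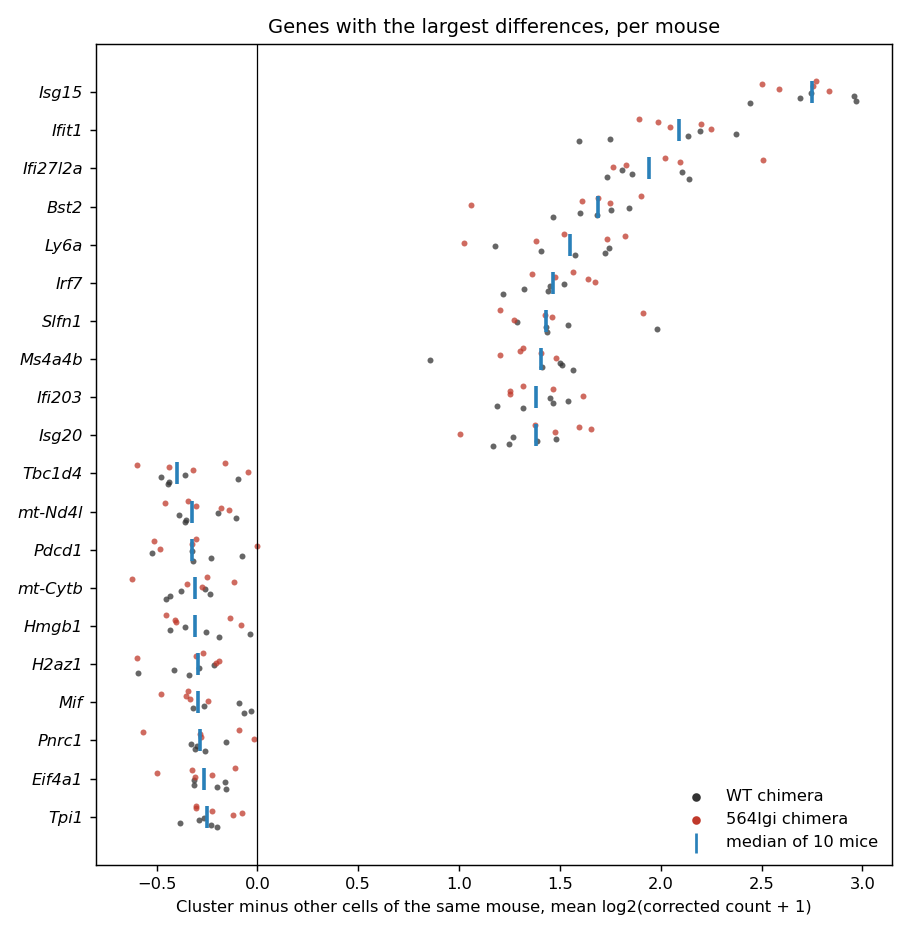
Difference in mean log2(corrected count + 1) between the cluster and the other cells of the same mouse (horizontal axis) for the 10 genes with the largest positive and the 10 with the largest negative medians (vertical axis); each point is 1 mouse and the blue mark is the median. For the raised genes every mouse lies above 0.5, with Isg15 between 2.44 and 2.97, while several of the lowered genes reach close to 0 in 1 mouse or more.

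The cluster was a mixture of Foxp3-detected and Foxp3-undetected cells. Foxp3 was found in 98 of its 379 cells (25.9%, 95% interval 21.5% to 30.6%), against 56.7% of Tfr cells, 7.19% of activated, 4.32% of Sostdc1, 6.34% of central memory and 4.40% of effector cells. As Foxp3 went undetected in many cells of the Tfr cluster, a cell without a Foxp3 UMI cannot be taken as lacking Foxp3. In mice with 20 or more cluster cells, Foxp3 was found in 22%, 26.5%, 21.1% and 32.7% of cluster cells of WT mice 11, 14, 23 and 36, and in 32.1%, 32.6%, 22.9% and 20.6% of those of 564Igi mice 13, 17, 21 and 34. The groups overlapped, and their means of 25.6% ± 5.31 and 27.0% ± 6.21 (SD, n = 4 each) differed by 1.48 points (exact permutation test over 70 assignments, two-sided, p = 0.771, smallest possible 0.0286).

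The raised genes were largely shared by both kinds of cell when each was set against the cells most like it. This comparison was chosen after seeing the data. Both kinds of cell had been placed in the cluster by their transcriptomes, interferon-stimulated genes included. The sharing and the counts per cell are therefore a description and not a test. Foxp3-detected cluster cells against Foxp3-detected Tfr cells gave 114 raised genes (0.826% of genes), 51 of them from the interferon-stimulated lists, and Foxp3-undetected cluster cells against Foxp3-undetected activated Tfh cells gave 145 (1.05%), 60 of them from those lists. The 93 genes raised in both were 81.6% of the first set and 64.1% of the second. A median of 42.5 interferon-stimulated genes per cell was found in Foxp3-detected and of 40 in Foxp3-undetected cluster cells.

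Foxp3-detected and undetected cells were then compared inside the cluster in 9 mice with at least 5 cells of each kind (all but WT mouse 12), over 8969 genes. With limma and a Benjamini-Hochberg adjusted p under 0.01 and a difference beyond 0.2, 0 genes were called (0% of genes tested), and the lowest adjusted p was 0.105. At an unadjusted p under 0.05 there were 905 genes (10.1%), 513 higher (5.72%) and the others lower (4.37%) in Foxp3-detected cells, and 235 genes (2.62%) had the same sign in all 9 mice. The Foxp3-detected cells had the higher median UMI count per cell in 7 of 10 mice, and the part of depth was not tested. Without limma's trend option the count of calls was 15, among them Capg, Ikzf2, Cd40lg, Tcf7, Cd81 and Ms4a4b.

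Genes of the regulatory T cell list lay mostly on the Foxp3-detected side. Of 14 tested, 13 had a positive difference (56.8% of all genes tested were positive), with a list median of 0.306 (0.00774 over all genes). An unadjusted p under 0.05 was found for 9 of the 13 (5.72% of all genes were higher at that level). Ikzf2, which encodes the regulatory T cell factor Helios, differed by 0.89 (SE 0.302, limma adjusted p = 0.327) and Tnfrsf18 (GITR) by 0.63 (SE 0.135, adjusted p = 0.114), both higher in 9 of 9 mice. Tnfrsf9 (0.59), Izumo1r (0.61), Ctla4 (0.51) and Tigit (0.48) were higher in 8 or 9 mice. None of these passed the adjusted threshold.

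Genes of B cell help lay mostly on the other side. Of 18 follicular helper genes 15 had a negative difference (56.8% of all genes tested were positive), and the list median was -0.0972 (0.00774 over all genes). Of these 15, 6 had an unadjusted p under 0.05 (4.37% of all genes were lower at that level). In Cd40lg, the CD40 ligand gene, the differences were -0.639, -0.555, -0.333 and -0.347 in WT mice 11, 14, 23 and 36 and -0.483, -0.253, -0.290, -0.265 and -0.451 in 564Igi mice 13, 17, 21, 24 and 34. All 9 were below 0, and their mean was -0.40 (SE 0.0589, limma adjusted p = 0.105). Il21 (-0.21, SE 0.0292, adjusted p = 0.105), which encodes the main B cell helper cytokine, and Slamf6 (-0.49, SE 0.116, adjusted p = 0.137) were also lower in 9 of 9 mice. Sh2d1a (0.51), Icos (0.37) and Maf (0.30) were the 3 helper genes with a positive difference, and each of them had an unadjusted p under 0.05 as well.

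Other genes with the lowest p-values were Ptp4a3 (0.27), Nsmce1 (0.26), Pglyrp1 (0.30), Ifngr1 (0.45) and Cd81 (0.53) on the Foxp3-detected side, and Dennd2d (-0.32), Eef1b2 (-0.26) and Kbtbd11 (-0.13) on the undetected side, each with the same sign in 9 of 9 mice. Interferon-stimulated genes were spread over both sides, 53 of 85 positive (56.8% of all genes tested were positive), with a median of 0.0262. At an unadjusted p under 0.05, 11 of them were higher and 7 lower (5.72% and 4.37% of all genes). Of the interferon-inducible GTPases, 14 of 16 were positive, 4 of these at that level. In the Schlafen family, 4 of 6 were negative, 2 of these at that level. Ifit1 differed by 0.26 (SE 0.160, higher in 7 of 9 mice) and Isg15 by -0.26 (SE 0.202, higher in 3 of 9). Of the MHC class I and immunoproteasome genes 13 of 16 were positive and 6 of these had an unadjusted p under 0.05 (5.72% of all genes were higher at that level), with H2-Q7 (0.50) and B2m (0.29) higher in 9 of 9 mice. Beside these, Ctss (0.17) and Cst3 (0.19) of the myeloid and dendritic list had unadjusted p under 0.05, and their part was not tested.

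**Figure D3:**
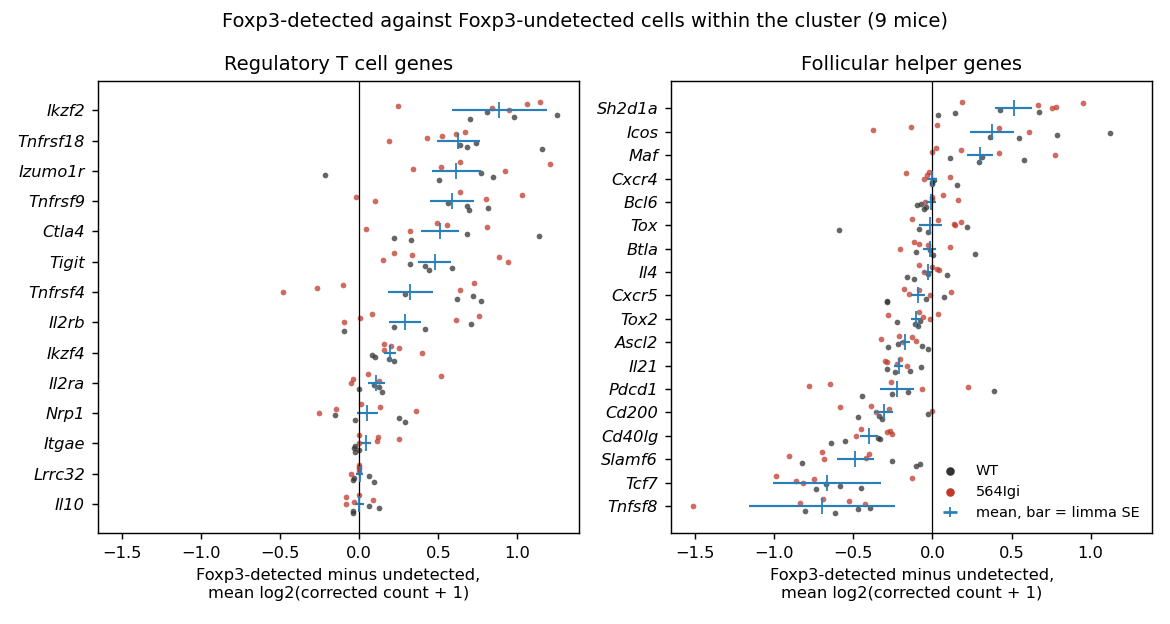
Difference in mean log2(corrected count + 1) between Foxp3-detected and Foxp3-undetected cells of the cluster (horizontal axes) for the regulatory T cell genes and the follicular helper genes (vertical axes); points are the 9 mice, blue marks the mean and its limma standard error. Most regulatory genes lie to the right of 0 up to Ikzf2 at 0.89, and most helper genes to the left, with Sh2d1a at 0.51 as the farthest exception.

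The condition comparison asked whether these cells differed between autoimmune and immunized mice. It used the 4 WT and 4 564Igi mice with 20 or more cluster cells and 9419 genes. With limma, 1 gene passed an adjusted p under 0.01 and a difference beyond 0.2 (0.0106% of genes). At an unadjusted p under 0.05 there were 396 genes (4.20%), 182 higher (1.93%) and 214 lower (2.27%) in 564Igi chimeras, and for 222 genes (2.36%) the mice of the groups did not overlap. Of the mice in this comparison, 1 of 4 WT and 3 of 4 564Igi were female, so sex moved with the condition. With sex as a covariate limma again called 1 gene, Gm42031 (1.61, adjusted p = 1.12e-10). The authors normalized each condition on its own, so a shift in level between conditions could also come from that step.

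The called gene was Gm42031, a long non-coding RNA gene (chr8:85125872-85132289, GENCODE vM21, build GRCm38). Its mean level in the cluster was 0.166, 0.532, 0.268 and 0.595 in WT mice 11, 14, 23 and 36, and 2.10, 1.4998, 1.78 and 3.17 in 564Igi mice 13, 17, 21 and 34. The groups did not overlap. The difference was 1.75 (SE 0.169, limma with Benjamini-Hochberg adjustment, adjusted p = 7.09e-11). The standard error from the spread of the mice alone was 0.379, larger than that of limma with its trend, and without the trend the adjusted p was 0.998. By exact permutation p was 0.0286, the smallest that 70 assignments allow. Other follicular T cells of the same mice had levels from 0.286 to 0.614 in WT and from 1.75 to 3.21 in 564Igi chimeras. The cluster minus other cells difference of Gm42031 differed by -0.0444 between the groups (SE 0.0819, limma adjusted p = 0.9998), and a difference particular to the cluster was not shown.

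Interferon-stimulated genes did not move between the groups as a whole. Of 85 tested, 36 were higher and 49 lower in 564Igi chimeras (50.1% of all genes were higher), with a median of -0.0181 (0.0000621 over all genes). An unadjusted p under 0.05 was found for 2 in each direction (4.20% of all genes in both directions). Isg15 levels were 2.82, 3.08, 3.29 and 3.09 in WT and 3.23, 3.07, 3.17 and 3.24 in 564Igi chimeras, which overlapped (difference 0.11, SE 0.134, limma adjusted p = 0.998). Ifit1 levels were 1.68, 2.20, 2.43 and 2.26 in WT and 2.30, 2.12, 2.25 and 1.97 in 564Igi chimeras, which overlapped too (difference 0.02, SE 0.160, limma adjusted p = 0.998). The 4 genes were the negative feedback gene Socs1 (0.30) and the sensor gene Ifi204 (0.12), which were higher, and Slfn5 (-0.25) and the sensor gene Ifi209 (-0.19), which were lower. From the interferon gamma list, the chemokine gene Cxcl10 was higher at that level (0.27). Of the 11 genes of the signalling pathway, 1 was higher and 1 lower at that level.

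**Figure D4:**
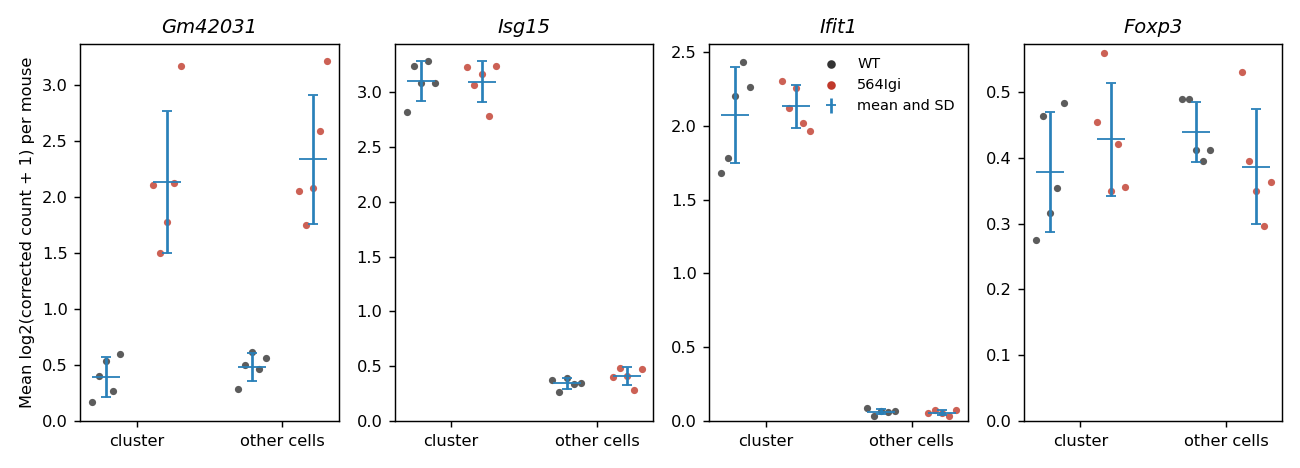
Mean log2(corrected count + 1) per mouse (vertical axes) of Gm42031, Isg15, Ifit1 and Foxp3 in the cluster and in the other cells, for 5 WT and 5 564Igi chimeras including the mice with fewer than 20 cluster cells; blue marks the mean and SD. Gm42031 separates the groups in both kinds of cell, while Isg15 and Ifit1 separate the cluster from the other cells in both groups.

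The next genes by p did not pass the threshold. The endosome tether gene Eea1 was at 0.648, 0.438, 0.803 and 0.768 in WT and at 1.68, 0.949, 1.15 and 1.04 in 564Igi mice, without overlap (difference 0.54, SE 0.112, limma adjusted p = 0.0501). It passed without 564Igi mouse 17 (limma adjusted p = 0.00233), without mouse 34 (0.00559) and without mice 34 and 36 (0.00570), and did not pass in the other settings tried, with a limma adjusted p of 0.483 with sex as a covariate and 0.998 without the trend. Tpi1, a glycolytic enzyme gene named by the study for the condition, was at 0.255, 0.481, 0.320 and 0.430 in WT and at 0.785, 0.585, 0.638 and 0.768 in 564Igi mice, also without overlap (0.32, SE 0.0721, adjusted p = 0.112). Sostdc1 (0.33, adjusted p = 0.264), which encodes a BMP and Wnt antagonist, and Zfand6 (0.26, adjusted p = 0.384) followed in limma, and the adjusted p of Sostdc1 was 0.000227 without 564Igi mouse 17 and 0.955 with sex as a covariate. That of Tpi1 was 0.400 in limma with sex as a covariate. On the lower side, Nkg7 (-0.20), Asb2 (-0.23), Cd86 (-0.07), Ccnt2 (-0.18) and H1f5 (-0.10) each had an adjusted p of 0.998, and Cd86 was at 0 in the cluster cells of all 4 564Igi mice.

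Some lists leaned one way without a call. Of all genes tested, 50.1% were higher in 564Igi chimeras in the cluster, and 48.8% in the cluster minus other cells difference. Genes of a list can move together, so these counts are a description. Of 9 heat shock genes tested, 8 were lower in 564Igi chimeras, with a median of -0.0984 and 0 at an unadjusted p under 0.05, and in the cluster minus other cells difference all 9 were lower (median -0.0845). A heat shock score had been regressed out by the authors, and its part in these values was not tested. All 6 memory and homing genes tested were lower in 564Igi chimeras, with a median of -0.115, and 3 of them, Klf2 (-0.20) and Ccr7 (-0.13) included, had an unadjusted p under 0.05 (2.27% of all genes were lower at that level). All 7 receptor-induced early genes tested were higher, with a median of 0.0478 and 1 at that level, Nr4a1 (0.11), beside 1.93% of all genes. In the cluster minus other cells difference, 5 of the 6 memory and homing genes were lower (median -0.0464) and 6 of the 7 early genes higher (median 0.0138), with 0 of either list at that level. Ly6a levels were 2.71, 2.81, 3.03 and 2.51 in WT and 2.96, 2.78, 3.43 and 3.33 in 564Igi chimeras, which overlapped (0.36, SE 0.149, limma adjusted p = 0.998). Of 10 genes that the study names for the condition on these samples, 4 were higher (Gm42031, Tpi1, Lag3 at 0.33 and Ly6a) and 2 lower (Id3 at -0.20 and Thy1 at -0.24) at an unadjusted p under 0.05 (1.93% and 2.27% of all genes), and that list is not independent evidence of its direction.

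To ask whether the condition acted differently on these cells than on the rest, the cluster minus other cells difference of each mouse was compared between the groups. With limma, 0 of 9419 genes were called (0%), and the lowest adjusted p was 0.770. At an unadjusted p under 0.05 there were 498 genes (5.29%), 230 higher (2.44%) and 268 lower (2.85%), and for 281 (2.98%) the groups did not overlap. Those with the lowest p were Zfand6 (0.23), Ercc6l2 (0.13), 1700019D03Rik (0.14), Rab27a (0.12) and Tagap (0.11) with a positive value, and Rpn1 (-0.19), Psme2 (-0.26), Vps28 (-0.20), Urgcp (-0.14) and Rab5c (-0.15) with a negative one. Psme2, which encodes an activator of the immunoproteasome, exceeded the other cells by 0.567, 0.433, 0.519 and 0.407 in WT and by 0.158, 0.204, 0.263 and 0.274 in 564Igi mice, so its difference was above 0 in all 8 mice and smaller in every 564Igi mouse (limma adjusted p = 0.770). With the 2 mice of fewer than 20 cluster cells included, the difference between the groups was -0.0210 (limma adjusted p = 0.995).

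TCR sequences gave a view of the cluster that did not enter the clustering, since receptor genes had been removed. A paired TCR was available for 280 of the 379 cells (73.9%, against 76.0% of other cells), and cells of 1 mouse with the same pair of CDR3 sequences were counted as a clone. Of these 280, 164 belonged to clones of 2 or more cells (58.6%), compared with 62.7% of Tfr, 69.7% of activated, 79.0% of Sostdc1, 72.8% of effector and 6.49% of central memory cells. By mouse the share was 52.2%, 63.6%, 61.5%, 54.5% and 65% in WT and 65.4%, 67.6%, 70%, 68.8% and 36.8% in 564Igi chimeras, where mouse 34 was the lowest of all. The mean was 60.6% ± 10.2 in the cluster and 65.3% ± 6.22 in the other cells of the same mice (SD, n = 10). The difference of -4.78 ± 7.83 points, lower in 7 of 10 mice, did not pass (exact sign flip test, two-sided, p = 0.0781), and without 564Igi mouse 24 it was -6.23 with p = 0.0156. Among mice with 20 or more cluster cells, 564Igi chimeras had 60.0% ± 15.5 and WT chimeras 58.3% ± 5.97 (SD, n = 4 each), a difference of 1.65 points within the spread between mice (exact permutation test, two-sided, p = 0.829). Without 564Igi mouse 34 the difference was 9.36 points (exact permutation p = 0.0571), and without mice 34 and 36 it was 11.6 points (exact permutation p = 0.1, the smallest possible with 3 mice per group).

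The cluster was spread over many clones. Its 280 cells with a TCR fell into 262 clonotypes, of which 18 held 2 cluster cells and none held more. The largest clone with a cluster cell had 179 cells. Counting every pair of a cluster cell and another cell of its clone, in 36 of 2678 pairs the sister was itself in the cluster (1.34%). Of all cells with a TCR, 1.31% were in the cluster. The pairs were pooled over mice and weighted toward large clones, while the second share includes cells without a sister. A difference between these shares was not tested. The 2120 sister cells outside the cluster had a median of 12 interferon-stimulated genes found per cell, equal to the median of 12 in other expanded cells outside it, and by mouse the sisters' median was above in 3, below in 4 and equal in 3.

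Sister cells differed with Foxp3. Of the Foxp3-detected cluster cells, 35 of 67 (52.2%) had a sister in the Tfr cluster, against 54 of 213 (25.4%) of the Foxp3-undetected. By mouse the shares of Foxp3-detected cells were 40%, 50%, 50%, 33.3% and 20% in WT and 62.5%, 70%, 71.4%, 40% and 62.5% in 564Igi chimeras, and those of undetected cells were 25%, 22.2%, 20%, 29.6% and 46.7% in WT and 16.7%, 29.2%, 34.8%, 18.2% and 13.3% in 564Igi chimeras. The share was higher in Foxp3-detected cells in 9 of 10 mice, all but WT mouse 36. The mean difference was 24.4 ± 22.8 points (SD, n = 10, exact sign flip test over 1024 patterns, two-sided, p = 0.0137, adjusted over the pair of sister tests 0.0137).

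Sisters in the activated Tfh cluster showed the reverse. They were found for 16 of 67 Foxp3-detected (23.9%) and 106 of 213 undetected cells (49.8%). By mouse the shares were 10%, 0%, 0%, 0% and 20% in WT and 25%, 40%, 57.1%, 40% and 25% in 564Igi chimeras for Foxp3-detected cells, and 47.2%, 33.3%, 55%, 51.9% and 60% in WT and 61.1%, 50%, 60.9%, 63.6% and 26.7% in 564Igi chimeras for undetected cells. The share was lower in Foxp3-detected cells in all 10 mice, by 29.3 points on average (-29.3 ± 18.9, exact sign flip test, two-sided, p = 0.00195, the smallest possible, adjusted 0.00391). Both differences were more positive in 564Igi chimeras, a comparison chosen after seeing the data. For the Tfr cluster the mean was 9.96 ± 23.05 points in WT (above 0 in 4 of 5 mice) and 38.9 ± 10.7 in 564Igi chimeras (5 of 5), and they differed by 28.9 points (exact permutation test, two-sided, adjusted p = 0.0238), which did not pass without 564Igi mouse 13, 17, 21 or 34 (exact permutation, adjusted p = 0.0556 each). For the activated cluster the means were -43.5 ± 9.45 and -15.0 ± 14.6, below 0 in all mice, and they differed by 28.5 points (exact permutation test, adjusted p = 0.0238). The shares of 0% rest on 2, 6 and 6 Foxp3-detected cells in mice 12, 14 and 23, and by the limit of 3 counts of the total a count of 0 of 6 allows a share of up to 50%, while 0 of 2 sets no limit.

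Measured in the same way, Foxp3-detected cells of the Tfr cluster had a sister in that cluster in 57.0% ± 9.83 of cases and in the activated cluster in 23.6% ± 8.15 (mean and SD of 10 mice). Foxp3-undetected activated Tfh cells had them in 34.3% ± 9.91 and 65.3% ± 5.41. For Foxp3-undetected cells of the Tfr cluster these shares were 54.5% ± 9.33 and 34.8% ± 7.39. For Foxp3-detected activated Tfh cells they were 38.5% ± 13.2 and 36.8% ± 12.2. The Foxp3-detected cells of the interferon-stimulated cluster stood at 49.98% ± 16.8 and 21.7% ± 19.7, and its undetected cells at 25.6% ± 9.92 and 51.0% ± 12.4, and the differences from the other clusters were not tested. The exact intervals given for shares of cells cover counting error only.

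**Figure D5:**
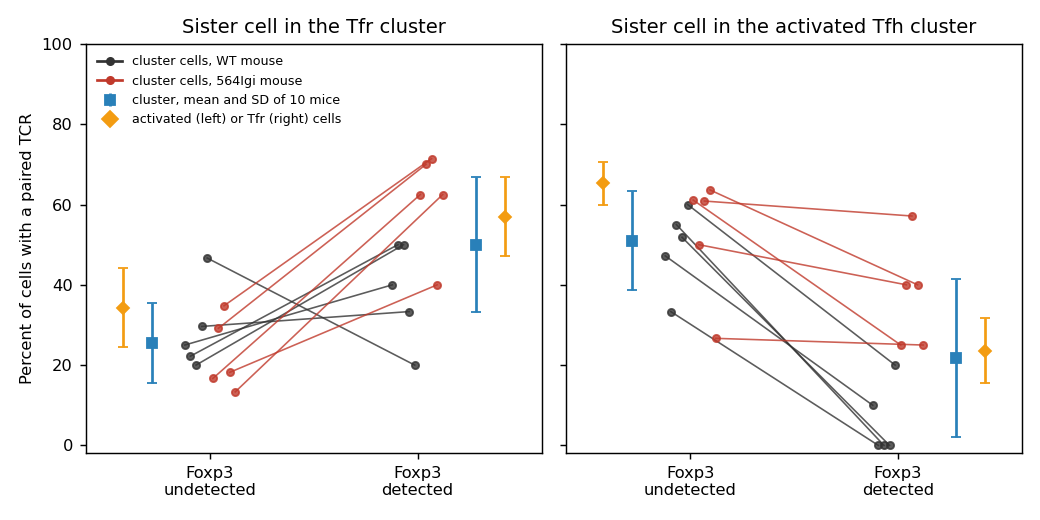
Percent of cluster cells with a paired TCR (vertical axis) that had a sister cell of the same clone in the Tfr cluster (left) or in the activated Tfh cluster (right), for Foxp3-undetected and Foxp3-detected cells. Lines join the values of a mouse, squares are the mean and SD of 10 mice and diamonds the mean and SD of activated Foxp3-undetected or Tfr Foxp3-detected cells; the lines rise on the left in 9 of 10 mice and fall on the right in all 10.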

How the data were processed

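The authors prepared 10x 5′ gene expression and V(D)J libraries from the sorted cells of 10 chimeras, aligned them to GRCm38 with Cell Ranger 4.0.0, and removed receptor genes and low-quality or cycling cells in Seurat 3.1.4. Expression values were deposited by the authors as the natural log of the sctransform-corrected count plus 1, made for each condition on its own. With the log undone, 100% of values were whole (tolerance 1e-06), but these are corrected and not raw, and tests for raw counts were not used. Raw UMI and gene counts per cell, the percent of UMIs in mitochondrial and ribosomal genes, and cell cycle and heat shock scores were deposited by the authors in the cell table, with cluster names. Raw depth was 3424280 to 15241983 UMIs per mouse.

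Mouse and condition came from the labels and matched the table in all 28192 cells. The table held fewer cells than the study states to have kept, and shares use the table's cells as denominator. Values were averaged per mouse as log2(corrected count + 1), pseudocount 1, so fold changes of low genes are understated. limma 3.58.1 (R 4.3.3, trend option, Benjamini-Hochberg) tested genes found in at least 1% of the cluster's cells, with calls at an adjusted p under 0.01 and a difference beyond 0.2. In the condition tests this share was asked for in a number of mice no smaller than the smaller group. The Foxp3 comparison asked for it in at least 5 of its 9 mice. With 14 to 68 cluster cells per mouse, 1 cell was enough to meet it. The pipeline was tested on simulated data. Single shares were compared by exact permutation or sign flips over mice, and the p-values of these tests measure the spread between these mice. Those of limma also draw on the spread of other genes through its trend, and so do not rest on the spread of the mice alone. Named genes were the 20 highest and 10 lowest within-mouse differences, called genes, the 5 lowest p in each direction, Ifit1, Isg15, Foxp3 and the list members with the largest differences (same sign in all mice for the first set). Other list members and the raised genes outside the lists, the comparisons of Foxp3-matched cells, and that of sister differences between conditions, were chosen after their values were seen. The members and lists were chosen with earlier results of these data known. Gene positions came from GENCODE vM21 and promoters from RefSeq. All 33833 cells of the TCR table had 1 alpha and 1 beta chain, no doublet caller was run, and doublets and free RNA were not removed. Python 3.11.15 with numpy 2.4.6, pandas 2.3.3, scipy 1.17.1 and matplotlib 3.10.9 was used for other steps. Some genes that met the rule are not reported here.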

Additional observations from a re-analysis of the deposited data

Results flagged for a closer look

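In 102 groups of 4 to 10 mice examined for a single mouse far from the rest (Dixon's 95% limit, which chance passes in about 1 of 20 groups), 7 were found. The share of cluster cells in clones of 2 or more cells was 36.8% in 564Igi mouse 34, where the nearest of the other 3 mice had 65.4%. Among within-mouse differences over 10 mice, Ifi27l2a was high in 564Igi mouse 24 at 2.51 (nearest 2.14), Bst2 was low in 564Igi mouse 13 at 1.06 (nearest 1.46), Ms4a4b was low in WT mouse 36 at 0.856 (nearest 1.21) and Phf11b was low in WT mouse 11 at 0.767 (nearest 0.924). All of these values were still above 0.2. In the condition comparison, the level of H1f5 in the cluster was 0.0465 in 564Igi mouse 17 and 0 in the other 3, and the cluster minus other cells value of Vps28 was -0.0160 in 564Igi mouse 13, with the nearest of the others at -0.179. In a comparison chosen after seeing the values of the mice, the Foxp3-detected minus undetected difference in the share of cells with a sister was higher in 564Igi than in WT chimeras, by 28.9 points for sisters in the Tfr cluster and by 28.5 points for sisters in the activated Tfh cluster (exact permutation adjusted p = 0.0238 for both). The former did not pass without 564Igi mouse 13, 17, 21 or 34 (exact permutation adjusted p = 0.0556 each), and as the comparison followed from the values, these p-values are not independent support. No explanation for these values was tested.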

How the results depend on the processing

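Of 1206 values recomputed under alternatives, 1136 were counted as the same. For a single gene in limma, this means the same sign and the same side of the threshold, however far its p moved. Some alternatives could not differ, such as leaving out cells with 2 alpha or 2 beta chains. The setting of 30 or more cells in the condition tests left out the same mouse as leaving out mouse 13. The total is therefore no measure of how stable the results are. Of the others, 28 moved in size, 25 changed sign, 12 came to pass the threshold and 5 no longer passed it. In the cluster's condition test (1 gene called), limma without its trend called 0 genes, leaving out mice 34 and 36 called 2, and leaving out single mice called 1 to 3, with 3 without 564Igi mouse 17 and 2 without mouse 34. Eea1 passed without mice 34 and 36 (adjusted p = 0.00570). The Foxp3 comparison called 15 genes without the trend in place of 0. Against the other cells, the scale of log2 mean counts per 10000 gave 200 raised genes and 87 lowered genes in place of 152 and 21, and larger differences (Ifit3 2.85, Usp18 2.30, Tpi1 -0.593), and a threshold of 0.5 left 71 raised and 0 lowered genes, while leaving out single mice gave 151 to 163 raised and 19 to 27 lowered.

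Differences near 0 changed sign. The share of cells in the cluster differed by -0.0450 points without mice 34 and 36 and by -0.0451 to 0.305 without single mice (-0.0214 without WT mouse 12). Between conditions, the Foxp3-detected share differed by 2.78 with all 10 mice, 3.96 with 2 or more Foxp3 UMIs, 6.01 without mice 34 and 36, and -0.358 to 3.86 (-0.0177 without WT mouse 23, -0.219 without 564Igi mouse 13) and the share in clones by -1.69 to 9.36 (9.36 without mouse 34, -0.393, -0.151 and -0.906 without mice 11, 13 and 17) without single mice. Against the other cells, the share in clones ran from -6.23 to -3.00 without single mice and was -2.46 (exact sign flip p = 0.371) with clone sizes from all cells of the TCR table. The sister differences ran from 21.7 to 30.1 points (Tfr) and from -32.3 to -26.4 (activated Tfh), and their differences between conditions, added after seeing the data, from 19.7 (without WT mouse 36) to 33.9 (27.2, 28.4, 29.4 and 26.3 without 564Igi mice 13, 17, 21 and 34, where it did not pass) and from 25.1 to 33.7. Isg15 differed between conditions by -0.00518 with all 10 mice. Ifit1 differed by -0.0322 with 30 or more cells per mouse, by -0.00560 with mice weighted by cells and by -0.139 to 0.111 without single mice (-0.0160 without mouse 21). In the cluster minus other cells comparison, Isg15 was -0.0872 on the scale per 10000, -0.0724 with all 10 mice, -0.00618 with 30 or more cells and -0.0616 to 0.110 without single mice, and Ifit1 was -0.0278 with 30 or more cells and -0.136 to 0.123 without single mice (-0.0112 without mouse 21). The causes were not tested. Leaving out cells with 2 alpha or 2 beta chains removed no cell. No paired analysis was possible because the groups shared no mouse numbers. The main limits are 14 to 68 cluster cells per mouse, which left rare transcripts near the level of single UMIs, immunization of 1 group only, and normalization by condition.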
